A study of Mus musculus with 3 samples.

Results

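CTCF and cohesin are the proteins that fold mammalian chromosomes into loops. Cohesin is a ring built from a pair of SMC ATPases, Smc1a and Smc3, closed by the kleisin Rad21 and bound by a STAG subunit, Stag1 or Stag2. The loader Nipbl puts the ring on chromatin and drives the extrusion of a loop, the release factor Wapl takes the ring off again, and Pds5a and Pds5b bind the ring and serve both release and its opposite, stable retention. Ctcf is a zinc finger protein that binds DNA in a fixed orientation and halts extruding cohesin, so that loops and topologically associating domains end at its sites. In dividing cells, fibroblasts among them, the same ring also holds sister chromatids together until mitosis.

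The 10 genes Ctcf, Smc1a, Smc3, Rad21, Stag1, Stag2, Nipbl, Wapl, Pds5a and Pds5b were taken by symbol from the 46603 Ensembl genes counted, and each symbol matched 1 gene. Polyadenylated RNA was sequenced from 3 libraries of KO-actin cells, which are mouse embryonic fibroblasts (MEFs) whose β-actin gene was knocked out and which express β-actin fused to a nuclear localization signal (NLS). All 3 libraries share this genotype and no other treatment is given, so no comparison between conditions could be made. The study describes such cells as lines generated earlier, and whether the one used here is a single clone is not given in the sources used here. The labels do not say whether the libraries came from separate cultures, and the spread between them may therefore be technical.

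The libraries held between 44383636 and 49932446 counts. Actb, the targeted gene, was at 1078, 1111 and 1066 CPM in replicates 1, 2 and 3 (CPM, reads of a gene per 1000000 counted, after TMM scaling of library sizes), and gene counts do not separate the NLS-tagged transcript from any RNA of the targeted locus. All 10 fibroblast markers examined were detected, which here means over 3 counts in each library. Of these markers, Thy1 had a mean of 0.836 CPM, Pdgfra of 4.97, Col1a2 of 20.99 and S100a4 of 31.2 CPM. The summed level of the 10 lay between 12482 and 13429 CPM, most of it from Vim, Col1a1 and Fn1 (means 4562, 4057 and 3578 CPM). Against this, the summed levels were 1.998 to 2.53 CPM for 4 endothelial, 38.3 to 40.2 CPM for 5 epithelial (nearly all Krt18), 7.31 to 10.3 CPM for 4 blood, 0.547 to 0.696 CPM for 4 pluripotency and 0.629 to 0.870 CPM for 5 germ cell markers. Detected were 2 of the 4 endothelial genes (Kdr and Pecam1), 2 of the 5 epithelial (Krt18 and Krt8), 2 of the 4 blood (Cd68 and Spi1), 1 of the 4 pluripotency (Nanog) and 1 of the 5 germ cell genes (Sycp1). Among these, Krt18 had up to 1915 counts in a library, Cd68 up to 442 and Kdr up to 113. Sycp1 had up to 40 and Nanog up to 30. Of the undetected genes, Lyz2 and Cdh1 had up to 12 counts and Tek up to 10, each with the most in replicate 2. Epcam, Ptprc, Cdh5, Sox2 and Dazl had at most 1. The part of other cell types in the levels below was not tested. All 5 proliferation markers were detected, at 1605 to 1622 CPM in sum.

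The paralogs of cohesin differ in sequence along their mRNAs. Between the coding sequences of Stag1 and Stag2 (GENCODE M21 transcripts), the longest run of identical bases was 23, and it was also 23 between Pds5a and Pds5b. Both stretches are shown because they hold the longest exact match of each pair, and matches with mismatches were not searched. Capitals mark the identical run and small letters the 15 bases on either side, 5′ to 3′ on the mRNA strand.
Stag1: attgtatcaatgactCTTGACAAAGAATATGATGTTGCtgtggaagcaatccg
Stag2: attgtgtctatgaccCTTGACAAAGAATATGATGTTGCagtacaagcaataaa
Pds5a: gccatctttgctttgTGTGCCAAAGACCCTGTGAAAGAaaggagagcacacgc
Pds5b: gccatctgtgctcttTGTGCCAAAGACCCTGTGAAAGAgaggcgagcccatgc
The runs cover coding bases 1147 to 1169 of Stag1, 1138 to 1160 of Stag2, 2863 to 2885 of Pds5a and 2836 to 2858 of Pds5b, counted from the start codon. Of the 50-base windows of the longest coding transcript, 0% occurred in transcripts of another gene for Smc1a, Rad21, Stag1, Stag2, Nipbl, Wapl, Pds5b and Ctcf. The share was 1.56% for Smc3 and 2.62% for Pds5a, and with windows of 100 bases it was 0% and 0.939%. Whether counting used the strand is not given in the sources used here. Exons of antisense genes cover 7.61% of the exonic bases of Ctcf (Agrp and Gm5914), 1.93% of Pds5a (Gm42727 and Gm42729) and 0.338% of Stag2 (Gm37564), and none of these antisense genes had more than 14 counts in any library.

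All 10 genes were detected in every library, with between 3797 and 28608 counts each. Together they held 2329, 2173 and 2348 CPM in replicates 1, 2 and 3. By CPM, 9 of the 10 stood in the top 25% of the 12087 protein-coding genes whose libraries each held 10 counts or more, a set with a median of 35.4 CPM. Since long transcripts yield more fragments, levels of different genes were compared as CPM per kilobase (kb) of the union of annotated exons. On that scale 5 of the 10 were in the top 25% and 9 above the median of 7.19 CPM per kb, with Stag1 practically at it. Per kb of coding sequence 4 were in the top 25% and 9 above the median of 22.6 CPM per kb.

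**Figure D1:**
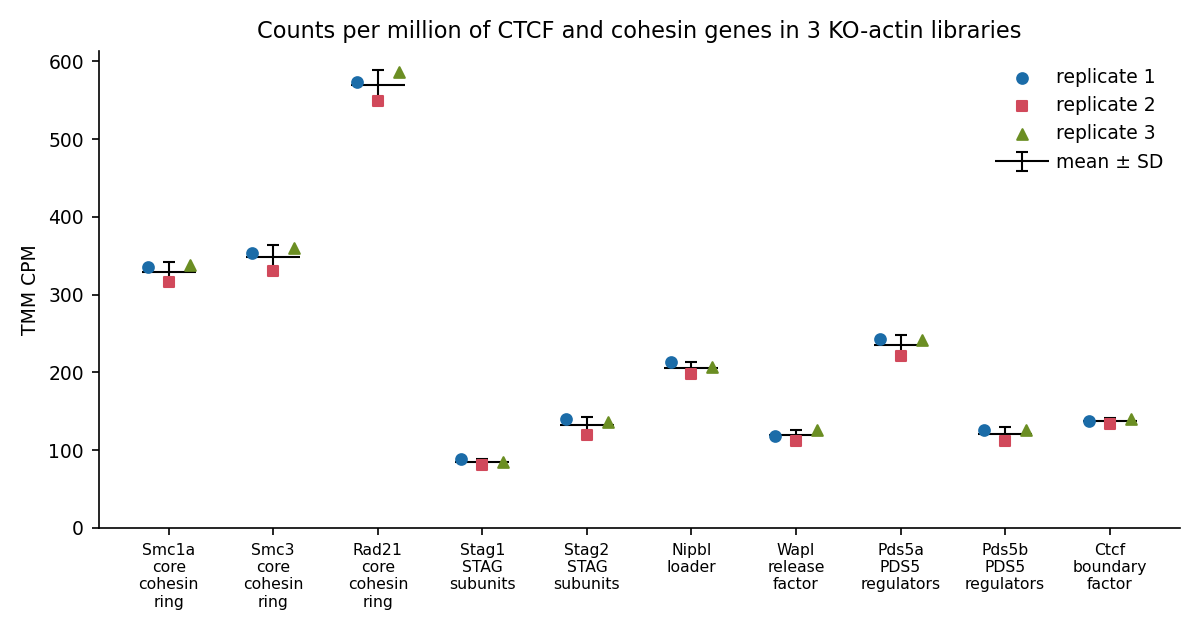
TMM CPM (vertical axis, linear) of each gene (horizontal axis, grouped by role) in the 3 KO-actin libraries; points are libraries, and bars give the mean and SD. Rad21 stood highest at 549 to 586 CPM, Stag1 lowest at 80.5 to 88.5 CPM, and the replicate 2 square was the lowest point of each gene.

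The core ring was led by its kleisin. Rad21 (ENSMUSG00000022314, chromosome 15, 51962240 to 51991747 of GRCm38, minus strand) had 573, 549 and 586 CPM in replicates 1, 2 and 3, which is 135, 129.8 and 139 CPM per kb. It ranked 189 among the protein-coding genes by CPM. Smc3, the ATPase whose head is acetylated when cohesion is established, is ENSMUSG00000024974, on chromosome 19 from 53600398 to 53645833. It had 354, 331 and 361 CPM, or 63.9, 59.7 and 65.1 CPM per kb. Smc1a, its partner ATPase (ENSMUSG00000041133), on chromosome X from 152016428 to 152062694, had 335, 316 and 338 CPM, or 58.1, 54.7 and 58.5 CPM per kb. The ranges of the SMC genes lay apart per kb of exon but overlapped by CPM, per kb of coding sequence and per kb of the longest transcript. Both were below that of Rad21 on each of these scales.

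Within each library the ratios of the ring genes hardly moved. Per kb of exon, Rad21 was 2.14 ± 0.0292 times Smc3 and 2.36 ± 0.0235 times Smc1a (SD, n = 3), while Smc3 was 1.10 ± 0.0107 times Smc1a. Each of these held in 3 of 3 libraries and exceeded the spread between them. An exact sign-flip permutation test over 3 libraries cannot go below a two-sided p of 0.25, and that value was obtained for 9 of the 10 ratios fixed for testing (adjusted p = 0.278 over the 10). Rad21 made up 52.9% ± 0.274 (SD, n = 3) of the summed CPM per kb of the 3 ring genes. The excess of Rad21 over Smc3 was larger per kb of coding sequence, at 3.13 ± 0.0428 times, because Rad21 has 1905 coding bases in 4232 exonic bases and Smc3 3651 in 5541.

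The STAG subunits give cohesin 2 forms, and Stag2 exceeded Stag1. Stag2 (ENSMUSG00000025862), on chromosome X from 42149317 to 42277185, had 140.3, 120.0 and 136 CPM, or 17.0, 14.5 and 16.4 CPM per kb. Stag1 (ENSMUSG00000037286), on chromosome 9 from 100597798 to 100959375, had 88.5, 80.5 and 85.2 CPM, or 7.51, 6.84 and 7.23 CPM per kb. The libraries of the paralogs did not overlap on either scale. Stag2 was 2.22 ± 0.0826 times Stag1 per kb of exon (SD, n = 3) and 1.57 ± 0.0585 times per kb of coding sequence, with Stag2 higher in 3 of 3 libraries by both. Its share of the STAG pair was 68.9% ± 0.810 per kb of exon and 61.1% ± 0.897 per kb of coding sequence (SD, n = 3). The lower figure goes with the lengths, since 17 annotated transcripts spread Stag1 over 11781 exonic bases, against 8273 for Stag2, while their coding lengths are 3841 and 3804 bases.

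Ctcf ranked between the ring and the regulators. The gene (ENSMUSG00000005698), on chromosome 8 from 105636568 to 105682922, had 138, 134 and 140.5 CPM, or 28.4, 27.6 and 28.9 CPM per kb. Its coefficient of variation over libraries, 2.34%, was the smallest of the 10 genes. Rad21 exceeded it 4.75 ± 0.0453 times per kb of exon and 4.80 ± 0.0457 times per kb of coding sequence (SD, n = 3). With the longest transcript as the length the ratio was lower, at 3.96 ± 0.0377 times. Among the other genes of chromosome structure examined, those nearest to Ctcf in log2 CPM per kb over the 3 libraries were Ncapd2, a condensin subunit, and Cdca5, which encodes sororin, the protector of cohesion, at Euclidean distances of 0.09 and 0.09. They had 29.0 ± 0.293 and 28.3 ± 0.867 CPM per kb (SD, n = 3) against 28.3 ± 0.661 for Ctcf. For Rad21 the nearest were the condensin genes Smc4 and Ncaph2, at distances of 0.78 and 1.17, and both were lower, at 98.6 ± 6.95 and 84.2 ± 0.832 CPM per kb. These distances describe level alone, per kb of exon and over 44 candidates, and they depend on the length. Per kb of coding sequence Ctcf was at 62.3, Ncapd2 at 43.5 and Cdca5 at 76.0 CPM per kb, and Pds5a, at 57.2, lay nearer. On that scale Rad21 was at 299, Smc4 at 133 and Ncaph2 at 194 CPM per kb.

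The loader and the release factor lay close together. Nipbl (ENSMUSG00000022141), on chromosome 15 from 8290617 to 8444463, had 213, 198 and 207 CPM, or 22.6, 20.97 and 22.00 CPM per kb. Wapl (ENSMUSG00000041408), on chromosome 14 from 34673928 to 34747983, had 119, 112 and 127 CPM, or 17.9, 17.0 and 19.1 CPM per kb. Per kb of exon Nipbl was 1.22 ± 0.0587 times Wapl (SD, n = 3), higher in 3 of 3 libraries, but per kb of coding sequence it was 0.743 ± 0.0358 times Wapl and lower in 3 of 3. The reversal follows from the structure of the mRNAs: the single annotated Nipbl transcript has 8394 coding bases in 9423, whereas Wapl has 3600 coding bases in 6623 exonic ones. With the longest transcript as the length Nipbl was again higher, 1.17 ± 0.0563 times. Which of the 2 is more abundant per molecule is thus not settled by gene counts. Both were below Rad21 by either length. Rad21 exceeded Nipbl 6.16 ± 0.161 times per kb of exon and 12.2 ± 0.319 times per kb of coding sequence, and it exceeded Wapl 7.49 ± 0.212 and 9.04 ± 0.256 times (SD, n = 3). Mau2, the partner of Nipbl in the loader, had 83.5 ± 2.40 CPM (SD, n = 3). Nipbl was 2.39 ± 0.0641 times Mau2 per kb of exon and 0.582 ± 0.0156 times per kb of coding sequence, again with opposite directions in 3 of 3 libraries.

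The PDS5 pair also depended on the length. Pds5a (ENSMUSG00000029202), on chromosome 5 from 65605721 to 65698273 on the minus strand, had 242, 221 and 242 CPM. Pds5b (ENSMUSG00000034021), on the same chromosome from 150673739 to 150810690, had 126, 112 and 126 CPM. Their levels per kb of exon could not be told apart, at 12.5, 11.4 and 12.5 for Pds5a and 12.8, 11.4 and 12.8 for Pds5b, with Pds5a higher in 1 of 3 libraries (exact sign-flip permutation p = 0.5 and adjusted p = 0.5, two-sided). The log2 ratio was -0.02 ± 0.02 (SD, n = 3). Annotated exons of Pds5a add up to 19335 bases over 14 transcripts, more than its longest transcript of 8934 bases by over 10 kb, and for Pds5b they add up to 9839 bases. Per kb of coding sequence Pds5a was 2.08 ± 0.0326 times Pds5b (SD, n = 3), and per kb of the longest transcript 1.61 ± 0.0252 times, higher in 3 of 3 libraries by both.

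The order of the 10 genes per kb of exon ran from Rad21 through Smc3, Smc1a, Ctcf, Nipbl, Wapl, Stag2, Pds5b and Pds5a to Stag1. Neighbours in this order were said to differ when the log2 ratio had the same sign in all 3 libraries and its mean was over 2 SD. Of the 9 neighbouring pairs 8 differed, and Pds5b and Pds5a did not. Of the differences, that between Wapl and Stag2 was the nearest to its spread, with a log2 ratio of 0.17 ± 0.08 (SD, n = 3). It reversed with the other lengths. Stag2 was above Wapl in 3 of 3 libraries, by 0.19 ± 0.08 per kb of the longest transcript and 0.07 ± 0.08 per kb of coding sequence. Rad21, Smc3 and Smc1a held the first, the second and the third place, and Stag1 the last, with each of the 4 scales tried. Nipbl moved between the fifth and the ninth place, Pds5a between the fourth and the ninth, and Wapl between the sixth and the ninth. Ctcf took the fourth place with each of the 3 lengths and the sixth by CPM without length.

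**Figure D2:**
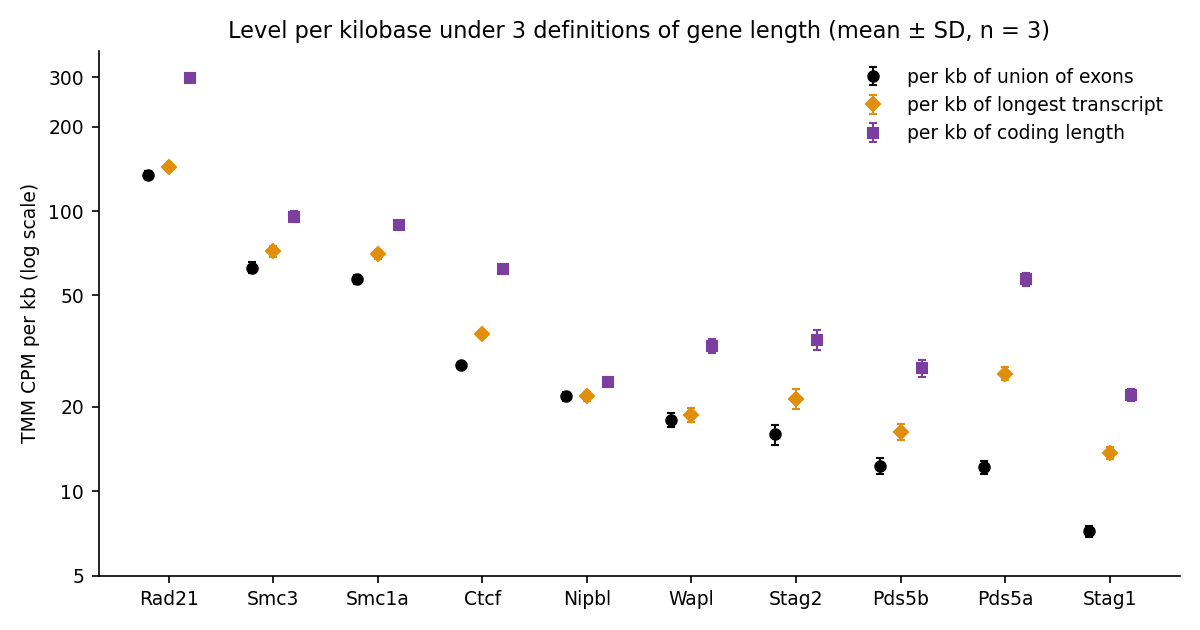
TMM CPM per kb (vertical axis, log scale) of each gene, ordered by its level per kb of exon, with the union of exons, the longest transcript or the coding sequence as the length; points are means and bars SD of the 3 libraries. Rad21 is highest and Stag1 lowest by each length, while Pds5a rises from 12.2 to 57.2 CPM per kb between the union of exons and the coding length.

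All 10 genes were lowest in replicate 2, and 5 each were highest in replicates 1 and 3. Among the 13814 genes tested (10 counts or more in each library), 38.7% were lowest in replicate 2. A chi-square test of each gene's counts against the scaled library sizes, with Benjamini-Hochberg adjustment over the 13814 genes, asked whether libraries differed by more than counting error. It compares libraries of 1 condition and says nothing of conditions. The test called 9 of the 10 genes at an adjusted p under 0.05, against 43.8% of all genes tested. Of all genes, 18.5% were both called and lowest in replicate 2. These shares are not matched for depth: the test finds smaller differences at higher counts, and the 10 genes held 3797 to 28608 counts. With at least 100 counts in every library, 51.7% of genes were called. The same limit holds for the gene lists below. The differences were small: the highest library exceeded the lowest by 1.05-fold for Ctcf and by 1.17-fold for Stag2, with the other 8 genes between. The median SD of log2 CPM was 0.07 for the 10 genes and 0.08 for all genes tested. Counting error alone would give an SD of 0.01 to 0.02 in the 10 genes and more in genes with few counts. These 2 medians are therefore not matched for depth either.

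Stag2 varied most, with a log2 level in replicate 2 that was -0.20 from the mean of replicates 1 and 3 (adjusted p = 1.2e-17, chi-square). By this deviation Pds5b followed at -0.17 (adjusted p = 2.8e-11, chi-square) and Pds5a at -0.13 (adjusted p = 3.0e-13, chi-square). By the highest over the lowest library, Wapl (1.13-fold) came before Pds5a (1.10-fold). Wapl, at 119 against 127 CPM in replicates 1 and 3, was the only one of the 10 still called without replicate 2 (adjusted p = 0.0086, chi-square). Rad21 came next in that fit (adjusted p = 0.053, chi-square). Without replicate 2 the test called 12.6% of all genes, near the 1 of 10 here. Ctcf was the one gene not called, at -0.05 (adjusted p = 0.062), although it was called with total counts in place of TMM scaling and, at an adjusted p of 0.030, without replicate 1.

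Replicate 2 stood apart from the other libraries across genes of different base composition, and the loop machinery is encoded by transcripts of low GC content. The 10 genes ranged from 38.1% GC (Stag2) to 46.9% (Smc1a), with a median of 42.4% against 49.9% for all genes tested. Of the 10, 8 fell in the lowest quartile of genes by GC content (up to 45.03%), where 69.7% of genes were lowest in replicate 2 and the median log2 deviation of that library was -0.10. The other 2, Ctcf and Smc1a, fell in the second quartile, where these values were 48.2% and -0.03. In the highest quartile they were 11.3% and 0.10. Across the 10 genes the deviation of replicate 2 rose with GC content, with a Pearson r of 0.85 and a Spearman rho of 0.78, given as a description because the genes share the same libraries.

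When each library's deviations were centred within 50 bins of GC content, the median deviation of replicate 2 over the 10 genes went from -0.11 to -0.02 on the log2 scale. The number of genes lowest in replicate 2 then fell from 10 to 5, against 35.4% of all genes. The number called fell from 9 to 1, against 29.9% of all genes. That gene was Smc1a, with a deviation of -0.06 (adjusted p = 0.00040, chi-square). Stag2, at -0.05, and Wapl, at 0.01, were at adjusted p-values of 0.059 and 0.051. Ctcf was the steadiest after centring, its highest library exceeding the lowest by 1.01-fold. Whether base composition itself, or a property of replicate 2 that goes with it, set the deviations was not tested.

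**Figure D3:**
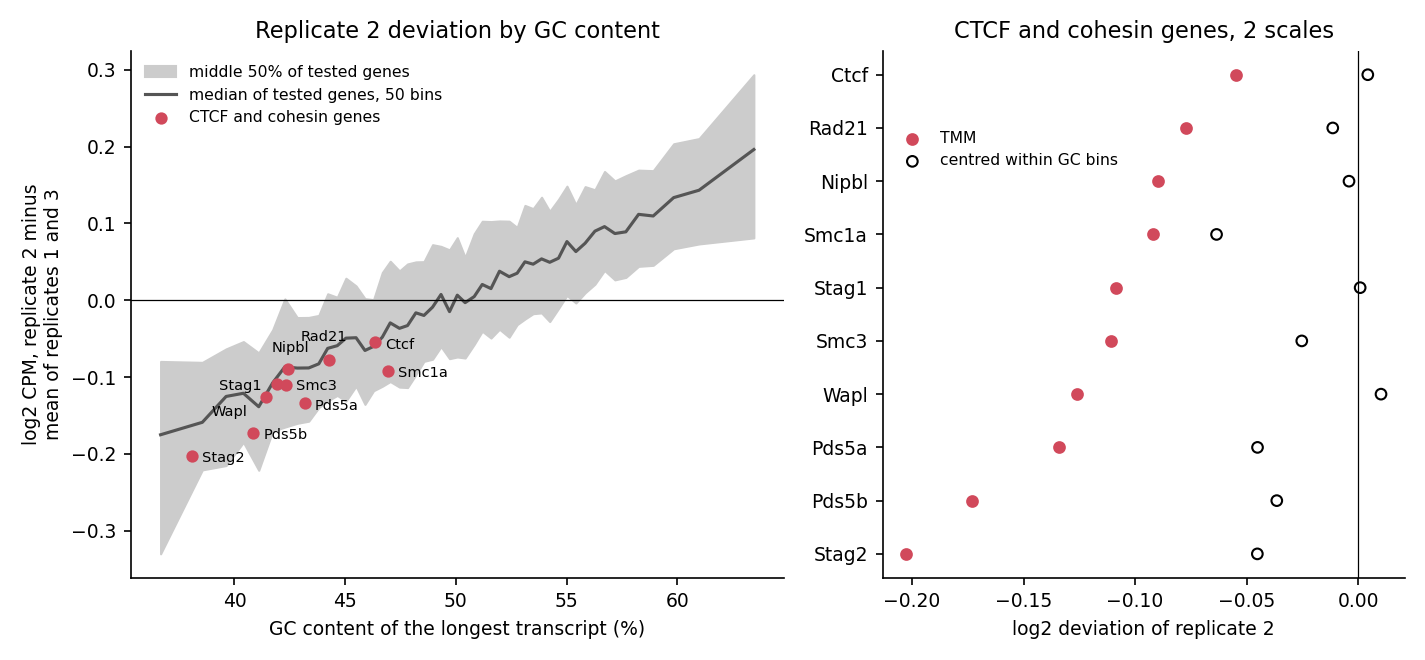
Left, log2 CPM of replicate 2 minus the mean of replicates 1 and 3 (vertical axis) against the GC content of the longest transcript in % (horizontal axis); the line and band give the median and middle 50% of tested genes in 50 bins, and red points are the 10 genes. Right, the same deviation for each gene with TMM scaling (filled) and after centring within GC bins (open), where the range narrows from between -0.20 and -0.05 to between -0.06 and 0.01.

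Genes that act with the loop machinery, or belong to related complexes, were taken from fixed lists. Of the 10 loader partner and modifier genes all were detected, from Hdac8, the deacetylase that recycles Smc3, at 2.76 ± 0.0850 CPM per kb to Plk1, the mitotic kinase that promotes removal of cohesin from chromosome arms, at 71.9 ± 4.62 (SD, n = 3). Of the acetyltransferases that act on Smc3, Esco1 had 835, 745 and 745 counts and Esco2 1664, 1440 and 1500. Of these 10 genes, 4 were called as varying between libraries and 1 of them was lowest in replicate 2, near the 43.8% and 18.5% of all genes tested.

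The germline counterparts were not detectable at this depth. Smc1b had 3, 1 and 2 counts, Rec8 0, 1 and 0, Stag3 1, 1 and 0, and Rad21l and Ctcfl 0 in every library, so that 0 of 5 passed 3 counts in every library. Since 0 counts are compatible with up to 3, the detection limit lay between 0.0601 and 0.0673 CPM by library, for counting error only. The longest identical run between coding sequences was 23 bases for Smc1a and Smc1b, 17 for Rad21 and Rad21l, 14 for Stag2 and Stag3, and 12 for Ctcf and Ctcfl.

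All 8 condensin subunits were detected, from Ncapd3 at 6.60 ± 0.251 to Smc4 at 98.6 ± 6.95 CPM per kb (SD, n = 3). Condensin compacts chromosomes for mitosis and is, like cohesin, built on a pair of SMC ATPases. Its other SMC gene, Smc2, was at 51.7 ± 2.86 CPM per kb (SD, n = 3), below Smc1a, while Smc4 was above Smc3 and below Rad21. Of the 8, 4 were called as varying, near the 43.8% of all genes, and all 4 were lowest in replicate 2, against 18.5% of all genes both called and lowest there. Transcripts of these 4 held 34.8% to 44.3% GC, and those of the other condensin genes 46.8% to 55.7%. Ncapd3, at 46.8%, was lowest in replicate 2 as well but was not called (adjusted p = 0.056, chi-square). All 7 genes of the SMC5/6 complex and SMCHD1 were detected too, from Nsmce3 at 4.09 ± 0.239 to Nsmce1 at 29.4 ± 1.35 CPM per kb (SD, n = 3). All 7 were called, 4 of them with replicate 2 lowest, against the same 43.8% and 18.5%. Transcripts of the latter 4 held 38.7% to 45.2% GC. Among the rest, Nsmce4a (40.5%) and Nsmce1 (52.7%) were lowest in replicate 1, and Nsmce3 (44.7%) was highest in replicate 2. Whether GC content set these patterns was not tested.

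The last list held 10 other proteins with roles at loops or boundaries, and all were detected. The highest was Top2a, the DNA topoisomerase of dividing cells, at 72.0 ± 3.28 CPM per kb, and the lowest Adnp at 2.42 ± 0.411 (SD, n = 3). Adnp is uncertain, because 82.1% of its exonic bases are shared with Gm20716 on the same strand. In this list 9 genes were called, against 43.8% of all genes, and 2 of them had replicate 2 lowest, near the 18.5% of all genes. The list's median deviation of that library was 0.09 on the log2 scale, opposite in sign to the -0.11 of CTCF and cohesin. Transcripts of the list ranged from 42.2% to 63.6% GC, and the 2 called genes with replicate 2 lowest held 42.2% and 43.4%. Whether GC content set this contrast was not tested.

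**Figure D4:**
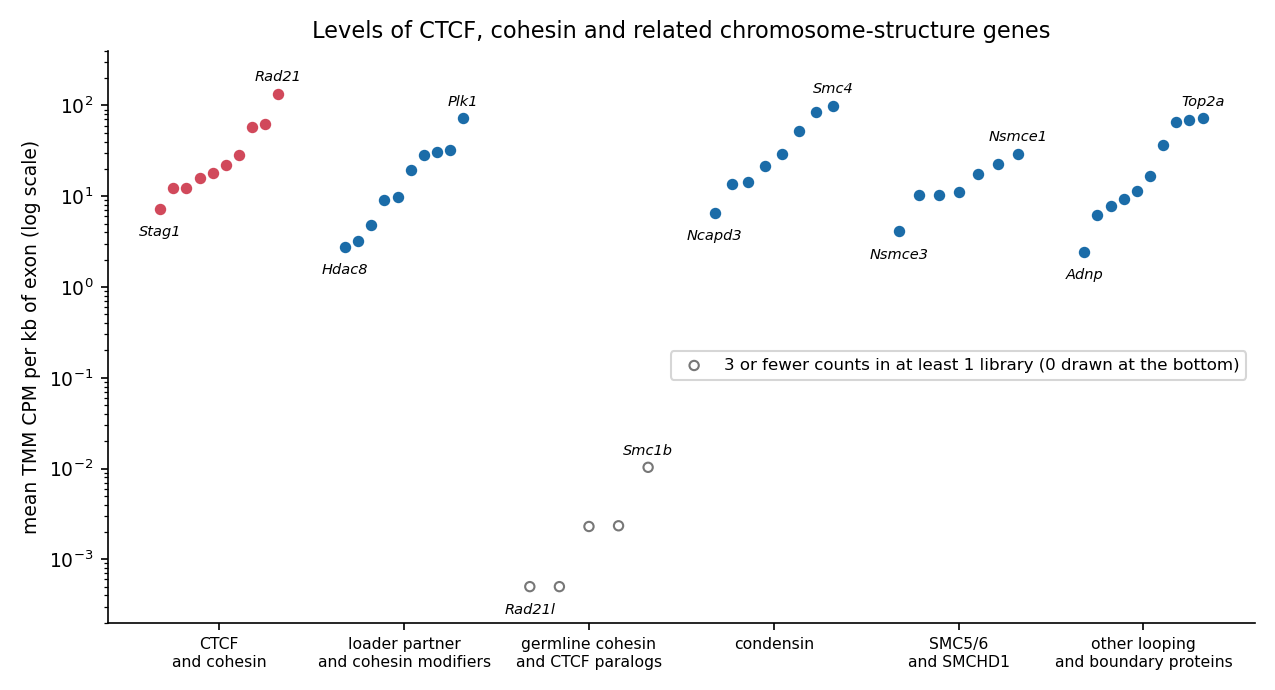
Mean TMM CPM per kb of exon (vertical axis, log scale) of single genes in each list (horizontal axis), with the lowest and highest gene of each list named; open circles are genes with 3 or fewer counts in at least 1 library, with a level of 0 drawn at the bottom. CTCF and cohesin genes run from 7.19 (Stag1) to 135 (Rad21) CPM per kb, and the 5 germline genes lie at the bottom.

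Promoter sequences from RefSeq (GRCm38.p6) were at hand for 7 of the 10 genes, namely Ctcf, Smc1a, Smc3, Stag1, Wapl, Pds5a and Pds5b. In the 250 bases before the start these held a median of 32 CpG dinucleotides, against 6 over all 32851 promoters in the table, and their median GC content was 71.2% against 52.4%. The low GC content of the transcripts did not extend to these 7 promoters. For Stag1, Pds5a and Pds5b the RefSeq start lies inside the span that GENCODE annotates. The promoters of Ctcf, Smc3 and Stag1 are shown as those of the boundary factor, a ring subunit and the gene of lowest level. Capitals mark the letters searched on both strands: GGGCGG (the GC box), CCAAT, TTTGGCGC and TTTCCCGC (forms of the E2F site) and the core motifs of CTCF, NRF1, YY1 and ZNF143. A GC box can share bases with TTTCCCGC or with the CTCF core.
Ctcf, chr8:105636288-105636537, plus strand: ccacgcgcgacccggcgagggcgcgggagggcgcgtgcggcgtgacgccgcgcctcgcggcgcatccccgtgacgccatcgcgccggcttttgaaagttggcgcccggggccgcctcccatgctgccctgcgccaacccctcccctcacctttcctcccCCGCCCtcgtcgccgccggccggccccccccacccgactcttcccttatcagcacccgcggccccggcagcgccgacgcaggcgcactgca
Smc3, chr19:53600146-53600395, plus strand: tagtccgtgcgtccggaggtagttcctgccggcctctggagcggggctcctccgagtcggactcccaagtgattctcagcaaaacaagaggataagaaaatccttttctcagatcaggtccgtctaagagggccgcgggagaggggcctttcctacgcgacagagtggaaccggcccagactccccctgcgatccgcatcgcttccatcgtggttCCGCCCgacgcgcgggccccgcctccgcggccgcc
Stag1, chr9:100643198-100643447, plus strand: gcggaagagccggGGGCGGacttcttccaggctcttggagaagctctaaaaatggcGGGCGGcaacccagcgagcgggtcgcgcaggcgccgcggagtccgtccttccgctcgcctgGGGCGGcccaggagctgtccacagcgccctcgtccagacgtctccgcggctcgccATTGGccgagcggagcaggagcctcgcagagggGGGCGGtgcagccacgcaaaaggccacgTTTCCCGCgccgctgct
The GC box was present in 7 of the 7 promoters and in 32.7% of all promoters. CCAAT was present in 4 of the 7 (Smc1a, Stag1, Wapl and Pds5b), against 33.8% of all. TTTCCCGC occurred in Stag1 alone, against 0.895% of all promoters, and TTTGGCGC in Pds5a alone, against 0.417%. The letters of the CTCF core were in 0 of the 7 and in 2.07% of all promoters, and those of NRF1, YY1 and ZNF143 were in 0 of the 7 and in 0.782%, 0.207% and 0.262% of all. These matches describe the letters in this window only, and no comparison was made with promoters of like GC content or of expressed genes.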

How the data were processed

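The data are poly(A) RNA-Seq of KO-actin cells in 3 libraries. For each library the authors deposited a file of raw read counts by Ensembl gene, not normalized. The submitters' processing notes name Trimmomatic, FastQC, HISAT2 and HTSeq and the builds mm10 and GRCm38, without versions. The annotation, the strand setting, the read length and the treatment of reads matching several genes are not given in the sources used here, and these can change the counts of genes with copies or overlaps. Symbols matched 46005 of 46603 genes. Lengths, GC content (of the longest transcript) and coordinates came from GENCODE M21 on GRCm38.

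Library sizes were scaled by TMM over genes holding 10 counts or more in each library (edgeR 4.0.16, R 4.3.3), with DESeq2 1.42.0 size factors as an alternative. Library totals of 44383636 to 49932446 leave a counting error of 0.01 to 0.02 in the log2 CPM of the 10 genes. Libraries were compared gene by gene by a chi-square test (2 degrees of freedom) and Benjamini-Hochberg adjustment, which was tested on simulated data, and ratios by an exact sign-flip permutation test. No edgeR group test was possible with 1 condition. Python 3.11.15, numpy 2.4.6, pandas 2.3.3, scipy 1.17.1 and matplotlib 3.10.9 were used. The alternatives were other scalings, count filters, lengths, GC centring and leaving out each library. Named outside the 10 genes were the highest and lowest detected gene and every undetected gene of each list of chromosome structure genes, genes of fixed ratios and the nearest in level. Esco1, Esco2, Smc2 and single markers were named after their values were seen. The 10 genes and the lists were chosen with earlier results of these data known.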

Additional observations from a re-analysis of the deposited data

How the results depend on the processing

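No paired analysis was possible because the libraries form a single group. The levels of the 10 genes moved by less than 1 SD under each other scaling. They also did so without any 1 library, but this is no test of the levels. Of 3 values, dropping any 1 always shifts the average by less than 1 SD. Length decided 3 of the 10 ratios, all by construction. The log2 ratio of Pds5a to Pds5b was -0.02 per kb of exon, 1.06 per kb of coding sequence, 0.69 per kb of the longest transcript and 0.96 by CPM. Nipbl to Wapl went from 0.28 to -0.43 and Nipbl to Mau2 from 1.26 to -0.78 with coding length. The other ratios kept their direction under every length tried. Each had the same direction in all 3 libraries, so leaving out any 1 library could not reverse it.

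Centring within GC bins left 1 of 9 genes called and 5 of 10 lowest in replicate 2. Across the fits without 1 library, between 1 and 10 of the 10 genes were called and between 1746 and 4817 of all genes, against 9 and 6046. The lowest values were both without replicate 2, and the cause was not tested. Other scalings and count filters called 9 or 10 of the 10, against between 25.9% and 51.7% of all genes. Requiring a mean of at least 1 CPM lowered the detected markers from 2 to 1 in the endothelial and blood lists, from 1 to 0 in the pluripotency and germ cell lists and from 10 to 9 in the fibroblast list. Depth limits what can be said of the germline genes and of the markers at or near 0.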
